A study of Mus musculus with 12 samples.

Results

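The proteases and inhibitors described here are 9 genes that act on the extracellular matrix or the cell surface: the matrix metalloproteinases (MMPs) Mmp8, Mmp9, Mmp12, Mmp13, Mmp14 and Mmp19, the membrane-bound sheddase Adam8, and the tissue inhibitors of metalloproteinases (TIMPs) Timp1 and Timp2. They were chosen by name, by matching the Ensembl identifiers of the count table to gene symbols, and are 9 of the 54232 genes in the table. All 9 passed the filter of at least 10 counts in at least 2 libraries, as did 16281 genes in all.

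RNA was sequenced from bone marrow-derived macrophages (BMDMs) of wild-type C57BL/6 mice, which the methods give as 6 to 8 weeks old, after 5 days of culture. The cells were then kept for 24 h in 1 of 6 conditions with 2 libraries each. The NS group received no tumour-conditioned medium (TCM). The NB9464 TCM group received medium conditioned by NB9464, a mouse neuroblastoma line with amplified MYCN, and the NBT3L TCM group received medium of NBT3L, a mouse neuroblastoma line without MYCN amplification. The other 3 groups, named R788, NB9464 TCM + R788 and, for the second line, NBT3L TCM + R788, received the same media with 500 nM R788 (fostamatinib, an inhibitor of the tyrosine kinase Syk). The TCM of NB9464 was collected over 48 h in DMEM without serum, while the collection of NBT3L TCM, the vehicle of R788 and the medium of the NS and R788 groups are not given in the sources used here, so that tumour-derived factors and the base medium cannot be told apart. The labels do not say whether the 2 libraries of a group came from separate mice or cultures, and the p-values measure the spread between these libraries, which may be technical.

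MMPs are zinc-dependent endopeptidases that are made as inactive proenzymes and, once activated, cut collagens, elastin, other matrix proteins and many non-matrix substrates. Mmp8 and Mmp13 are collagenases, Mmp9 is a gelatinase, Mmp12 is the macrophage elastase, Mmp14 is a transmembrane MMP that cuts collagen at the cell surface and activates pro-MMP2, and Mmp19 is a secreted MMP with several basement membrane substrates. Adam8 belongs to the ADAM family, whose members shed the outer domains of membrane proteins. TIMPs bind the active site of MMPs, and Timp2 also takes part in the complex through which Mmp14 activates pro-MMP2. Macrophages are a main source of MMP12 and MMP9 in inflamed and tumour tissue.

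Total counts ran from 44977847 to 56449685 per library, and 16149 to 18343 genes had at least 1 count, the lowest number being in R788 library 8. The 8 macrophage markers (among them Adgre1, Csf1r, Cd68 and Lyz2) summed to between 71200 and 85700 TPM in every library (TPM are counts per deposited gene length, scaled to the same sum in each library). Most of this sum was Lyz2 (65160 TPM in NS), and other macrophage markers moved: from NS to NB9464 TCM, Mrc1 went from 272 to 22.4 TPM, Cd68 from 2989 to 1600 TPM and Adgre1 from 1448 to 3650 TPM, and Fcgr1 went from 342 TPM in NS to 76.8 TPM in R788. The 8 neuroblastoma markers summed to at most 0.0591 TPM without TCM and to between 0.449 and 1.35 TPM with it, and 2 of them were at 0 in every library. Of the 4 that could be tested, Mycn and Hand2 were called higher in both TCM groups against NS, and Dbh in NBT3L TCM. The 8 fibroblast markers summed to 10.1 to 13.5 TPM in NS, 10.3 to 16.0 TPM in the TCM groups without R788 and 14.3 to 25.4 TPM in the R788 groups. The 10 neutrophil markers summed to between 443 and 794 TPM, most of it from S100a8 and S100a9, and are given beside Mmp8 and Mmp9 below. The 8 osteoclast markers, of which some are also macrophage genes, summed to between 87.2 and 241 TPM, with 115 to 117 TPM in NS, 182 to 201 TPM in TCM and 87.2 to 94.2 TPM in R788. These markers did not move together. Acp5 and Ctsk were called higher in both TCM groups against NS, Nfatc1 and Atp6v0d2 lower in both, and Dcstamp lower in NBT3L TCM.

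Mmp13, Mmp12 and Mmp8 lie in this order, all on the plus strand, in a cluster of 10 MMP genes that spans 427.1 kb of mouse chromosome 9 (GRCm38, 7272514 to 7699585). Mmp13 occupies 7272514 to 7283331, Mmp12 7344381 to 7369499 and Mmp8 7558456 to 7568485. Their promoter windows run from 250 bases before to 50 after an annotated start (RefSeq on GRCm38.p6). They are shown because Mmp8 differed in direction from Mmp12 and Mmp13 in comparisons with NS. There, Mmp8 rose with each TCM and with R788 alone, while Mmp12 fell in each and Mmp13 was called higher in none. With R788 in TCM, however, Mmp8, Mmp12 and Mmp13 all fell. The window of Mmp14 is shown because this gene rose most with TCM. Windows were given for 7 of the 9 genes, and Mmp12 has 2. Capitals mark matches on either strand to TGANTCA (the AP-1 motif), AACCACA (the RUNX motif) or TATAAA (the TATA box), none of which overlap each other here.
Mmp13 (chr9:7272264-7272563, plus strand): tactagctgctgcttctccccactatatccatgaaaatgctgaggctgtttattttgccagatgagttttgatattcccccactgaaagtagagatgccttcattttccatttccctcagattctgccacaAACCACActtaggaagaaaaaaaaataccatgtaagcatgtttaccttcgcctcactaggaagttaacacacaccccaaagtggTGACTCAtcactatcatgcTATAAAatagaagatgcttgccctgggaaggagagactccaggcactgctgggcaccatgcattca
Mmp12, first window (chr9:7344147-7344446, plus strand): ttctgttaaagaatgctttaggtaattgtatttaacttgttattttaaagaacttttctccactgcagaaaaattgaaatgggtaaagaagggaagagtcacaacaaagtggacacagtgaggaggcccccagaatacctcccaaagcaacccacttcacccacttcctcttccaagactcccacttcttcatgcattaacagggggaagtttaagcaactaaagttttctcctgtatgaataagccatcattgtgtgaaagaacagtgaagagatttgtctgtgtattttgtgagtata
Mmp12, second window (chr9:7347124-7347423, plus strand): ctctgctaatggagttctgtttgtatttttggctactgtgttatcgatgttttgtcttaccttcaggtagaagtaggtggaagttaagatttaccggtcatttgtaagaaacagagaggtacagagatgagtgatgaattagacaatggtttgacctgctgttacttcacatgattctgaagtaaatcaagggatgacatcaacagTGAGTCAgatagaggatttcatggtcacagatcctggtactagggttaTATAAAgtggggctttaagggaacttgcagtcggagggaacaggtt
Mmp8 (chr9:7558179-7558478, plus strand): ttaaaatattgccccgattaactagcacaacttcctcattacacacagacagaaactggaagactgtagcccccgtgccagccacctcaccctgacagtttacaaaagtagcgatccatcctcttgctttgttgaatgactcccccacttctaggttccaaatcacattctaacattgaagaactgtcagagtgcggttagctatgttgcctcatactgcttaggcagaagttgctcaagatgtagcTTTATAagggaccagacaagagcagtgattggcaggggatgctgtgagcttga
Mmp14 (chr14:54431348-54431647, plus strand): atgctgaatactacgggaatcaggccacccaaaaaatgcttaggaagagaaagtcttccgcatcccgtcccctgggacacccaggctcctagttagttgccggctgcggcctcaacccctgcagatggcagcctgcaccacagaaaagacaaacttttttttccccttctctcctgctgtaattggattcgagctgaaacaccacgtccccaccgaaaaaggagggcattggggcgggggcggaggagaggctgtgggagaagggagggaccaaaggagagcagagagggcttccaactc

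The Mmp13 window held all of the motifs searched, with AP-1 letters at -35, RUNX letters at -119 and TATA letters at -16 from the annotated start. The second Mmp12 window held AP-1 letters at -44 and TATA letters at 5, and the Mmp8 window held TATA letters on the minus strand at -3. No match was found in the first Mmp12 window or in the windows of Mmp14, Adam8, Timp1 and Timp2. Among all 32851 windows of the same length in the RefSeq table, 7.81% held AP-1 letters, 5.27% RUNX letters and 13.6% TATA letters. These matches describe the letters and were not tested for binding.

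**Figure D1:**
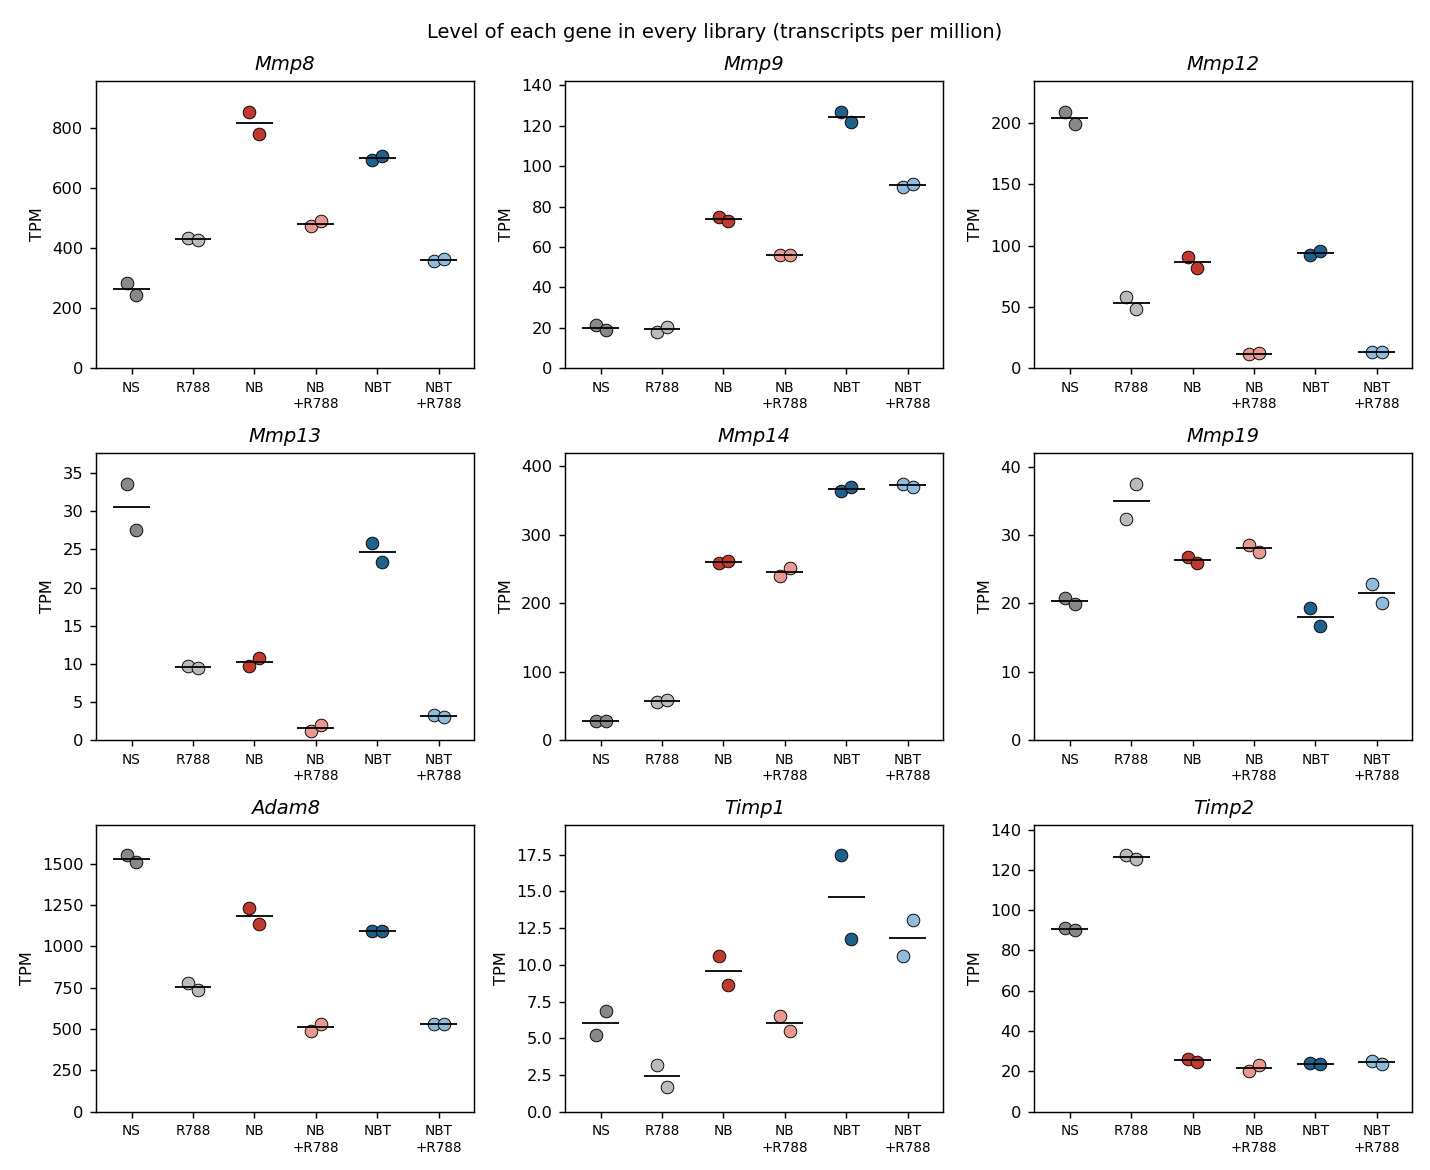
Level of each of the 9 genes in every library, in TPM on linear axes that start at 0 and differ between panels; points are libraries, bars are the mean of 2, NB and NBT stand for NB9464 and NBT3L TCM. Mmp14 and Mmp9 were higher in all 8 TCM libraries than in the 4 without TCM, Timp2 was lower, and Adam8 was lower in each R788 group than in the same medium without R788.

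Adam8 had the highest level per length of the 9 genes in every group, with a mean of 1530 TPM in NS and 510 TPM in NB9464 TCM + R788. In NS it was followed by Mmp8 (263 TPM), Mmp12 (204 TPM) and Timp2 (90.8 TPM), with Mmp13, Mmp14, Mmp19 and Mmp9 between 20.1 and 30.6 TPM and Timp1 at 6.02 TPM. The libraries of Mmp13 and Mmp14 overlapped in NS, as did those of Mmp19 and Mmp9, so that the order within these pairs is not resolved. In NB9464 TCM the order became Adam8, Mmp8 (815 TPM), Mmp14 (260 TPM), Mmp12 (86.2 TPM) and Mmp9 (73.9 TPM), and in NBT3L TCM Mmp9 (124 TPM) stood above Mmp12 (94.2 TPM). With R788 in NBT3L TCM, Mmp14 (372 TPM) stood above Mmp8 (359 TPM), and Mmp13 was the lowest gene at 3.14 TPM. TPM and normalized counts (counts divided by DESeq2 size factors, used for all fold changes) did not keep the same scale between media: for any gene, the log2 ratio of TPM differed from that of normalized counts by -0.25 between NB9464 TCM and NS and by -0.39 between NBT3L TCM and NS, but by 0.08 between R788 and NS.

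Conditioned medium was compared with no TCM to see which of these proteases and inhibitors differed between the media. In NB9464 TCM, Mmp8, Mmp9, Mmp14, Mmp19 and Timp1 rose and Mmp12, Mmp13, Adam8 and Timp2 fell (5 and 4 of 9 at an adjusted p under 0.05), where 17.2% of all tested genes were called higher and 16.9% lower. In NBT3L TCM, Mmp8, Mmp9, Mmp14 and Timp1 rose and Mmp12 and Timp2 fell, where 18.0% of all tested genes were called higher and 17.3% lower. The median log2 change of the 9 genes was 0.63 in NB9464 TCM and 0.21 in NBT3L TCM, beside 0.02 and 0.00 over all tested genes. Both comparisons use the same 2 NS libraries. With total counts in place of size factors, the median of all genes moved to -0.10 in NB9464 TCM and -0.23 in NBT3L TCM, and the genes called higher and lower changed from 2805 and 2747 to 2079 and 3795 in the former and from 2938 and 2817 to 1826 and 4993 in the latter.

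**Figure D2:**
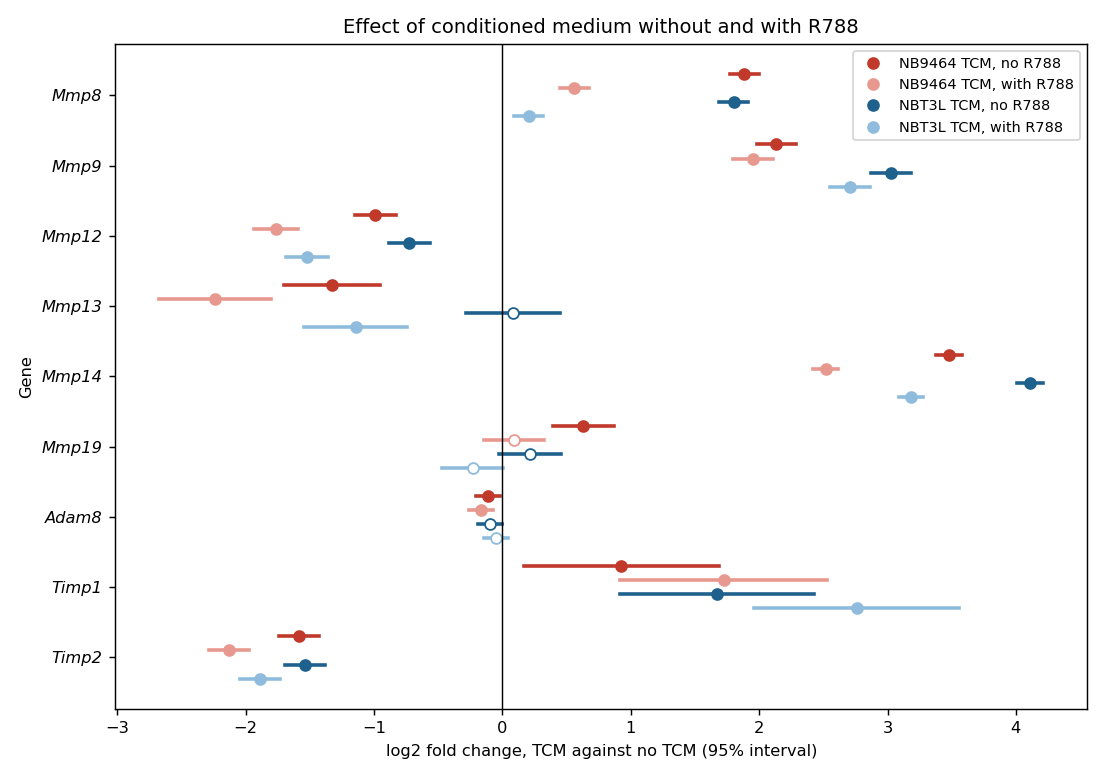
Log2 fold change of each gene between TCM and no TCM, for NB9464 TCM (red) and NBT3L TCM (blue), without R788 (dark) and with R788 (light), from DESeq2; lines are 95% intervals, filled points passed an adjusted p under 0.05 and open points did not. Mmp14 lies farthest to the right (3.48 and 4.11 without R788) and Timp2 lies left of 0 in all 4 comparisons.

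Mmp14, the membrane-bound activator of pro-MMP2 (chromosome 14, 54431612 to 54445364, plus strand), rose most. Its normalized counts were 2596 and 2615 in NS, 28147 and 29966 in NB9464 TCM and 44618 and 45523 in NBT3L TCM. No TCM library came near the NS libraries, and the 2 media did not overlap. This was an 11.2-fold rise in NB9464 TCM (log2 3.48 ± 0.05, SE) and a 17.3-fold rise in NBT3L TCM (4.11 ± 0.05). NB9464 TCM was lower than NBT3L TCM by 0.63 on the log2 scale (SE 0.05, DESeq2 adjusted p = 3.83e-37). Fibroblasts also express Mmp14, and the part of the fibroblast markers given above in these values was not tested.

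Mmp9, the gelatinase (chromosome 2, 164940780 to 164955850, plus strand), had normalized counts of 1157 and 1072 in NS, 4842 and 4946 in NB9464 TCM and 9253 and 8883 in NBT3L TCM. The groups were fully separate. It rose 4.39-fold in NB9464 TCM (log2 2.13 ± 0.08) and 8.14-fold in NBT3L TCM (3.02 ± 0.08). The difference between the media was -0.89 ± 0.07 (DESeq2 adjusted p = 9.98e-31).

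Mmp8, the neutrophil-type collagenase, had normalized counts of 10573 and 9448 in NS, 37716 and 36239 in NB9464 TCM and 34557 and 35213 in NBT3L TCM. Both media raised it above every NS library, 3.69-fold in NB9464 TCM (log2 1.89 ± 0.06) and 3.48-fold in NBT3L TCM (1.80 ± 0.06). The media differed by 0.08 with a 95% interval of -0.03 to 0.20, which did not pass the test (DESeq2 adjusted p = 0.412). Among the neutrophil markers, S100a8 rose (2.26 ± 0.29 in NB9464 TCM and 2.66 ± 0.29 in NBT3L TCM), while Ltf and Ngp, granule proteins of maturing neutrophils, fell (Ngp -1.29 ± 0.13 and -1.67 ± 0.13). Mpo, Elane and Retnlg were also called lower in both media, and S100a9 was called lower in NBT3L TCM. The list summed to 550 to 582 TPM in NS, 700 to 750 TPM in NB9464 TCM, 776 to 794 TPM in NBT3L TCM and 443 to 566 TPM in R788, and its part in the Mmp8 and Mmp9 values was not tested. In such bulk samples, fewer cells of a type and less RNA per cell cannot be told apart.

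Mmp12, the macrophage elastase, and Mmp13, a collagenase, did not follow Mmp8. Mmp12 had normalized counts of 23405 and 23036 in NS, 11952 and 11400 in NB9464 TCM and 13826 and 14273 in NBT3L TCM. It fell 1.99-fold in NB9464 TCM (log2 -0.99 ± 0.08) and 1.65-fold in NBT3L TCM (-0.73 ± 0.08). Mmp13 had normalized counts of 1390 and 1174 in NS, 472 and 549 in NB9464 TCM and 1425 and 1288 in NBT3L TCM. The NBT3L TCM libraries overlapped those of NS (0.08 ± 0.19), and those of NB9464 TCM lay below both groups. Mmp13 fell 2.51-fold in NB9464 TCM against NS (-1.33 ± 0.19) and was 2.66-fold lower in NB9464 TCM than in NBT3L TCM (-1.41 ± 0.19, DESeq2 adjusted p = 9.43e-12). Without the NS library 2, Mmp13 in NBT3L TCM was at -0.04, and with total count scaling at -0.15, neither past the test.

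Mmp19 (chromosome 10, 128790910 to 128800824, plus strand) had normalized counts of 1132 and 1122 in NS, 1727 and 1761 in NB9464 TCM and 1405 and 1213 in NBT3L TCM. It rose 1.55-fold in NB9464 TCM (log2 0.63 ± 0.12), while the value in NBT3L TCM was 0.22 ± 0.12 and did not pass the test. That value was -0.02 with total count scaling. Exons of Tmem198b on the opposite strand share 789 bases with Mmp19, 22.3% of its length, and Tmem198b itself had 259 to 595 counts per library. The sources used here do not state whether counting used strand, so a part of these reads cannot be told apart.

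Adam8 (chromosome 7, 139978932 to 139992562, minus strand) changed little with TCM on the normalized scale. It had normalized counts of 111053 and 111623 in NS, 104307 and 101206 in NB9464 TCM and 104119 and 104540 in NBT3L TCM. Its fall in NB9464 TCM was small (log2 -0.12 ± 0.05, DESeq2 adjusted p = 0.0447) and missed the threshold whichever of the 4 libraries was left out (adjusted p of 0.0664 to 0.256). In NBT3L TCM the value was -0.09 ± 0.05 and did not pass, but with total count scaling it was -0.33 and did (DESeq2 adjusted p = 1.4e-10).

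The inhibitors moved in opposite directions. Timp2 (chromosome 11, 118301069 to 118355740, minus strand) had normalized counts of 5498 and 5611 in NS, 1867 and 1846 in NB9464 TCM and 1921 and 1907 in NBT3L TCM. All TCM libraries lay below NS, a 2.99-fold fall in NB9464 TCM (log2 -1.58 ± 0.08) and a 2.90-fold fall in NBT3L TCM (-1.54 ± 0.08), and the media differed by -0.04 with a 95% interval of -0.20 to 0.12. Timp1 (chromosome X, 20870166 to 20874735, plus strand) was the most thinly counted of the 9 genes, with normalized counts of 71.4 and 96.7 in NS, 172 and 147 in NB9464 TCM and 319 and 215 in NBT3L TCM. Syn1, on the opposite strand, overlaps Timp1 without shared exon bases and had 107 to 597 counts per library. Whether its reads add to the Timp1 counts was not tested. Timp1 rose 3.18-fold in NBT3L TCM (1.67 ± 0.39, DESeq2 adjusted p = 7.63e-05). Its rise in NB9464 TCM was 1.90-fold (0.92 ± 0.39, DESeq2 adjusted p = 0.0493), a call that was lost when any of the 4 libraries was left out and with edgeR (adjusted p = 0.0559).

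Summed over the 6 MMP genes, the level per length was 538 and 595 TPM in the NS libraries, 1230 and 1310 TPM in NB9464 TCM and 1320 and 1330 TPM in NBT3L TCM. The sum of Timp1 and Timp2 went from 96.5 and 97.2 TPM in NS to 33.3 and 36.9 TPM in NB9464 TCM and 35.5 and 41.4 TPM in NBT3L TCM. The ratio of the MMP to the TIMP sum, which no scaling between libraries affects, was 5.86 ± 0.45 (SD, n = 2) in NS, compared with 36.3 ± 0.99 in NB9464 TCM and 34.7 ± 3.96 in NBT3L TCM. For Mmp14 over Timp2, whose proteins form a complex on the cell surface, the ratio was 0.305 and 0.309 in NS, 9.85 and 10.6 in NB9464 TCM and 15.2 and 15.6 in NBT3L TCM. These are ratios of transcripts, and neither protein nor activity was measured here.

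**Figure D3:**
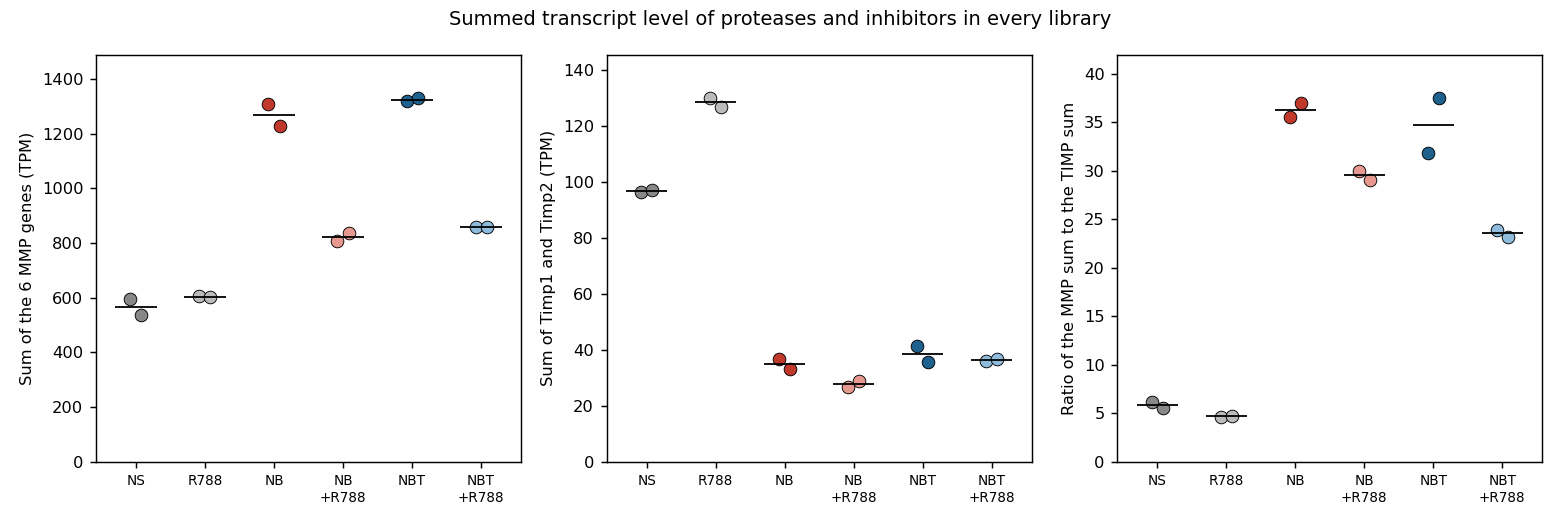
Summed TPM of the 6 MMP genes, summed TPM of Timp1 and Timp2, and the ratio of the sums in every library; points are libraries, bars are the mean of 2, axes start at 0. The ratio lies between 4.65 and 6.17 in the 4 libraries without TCM and between 23.2 and 37.5 in the 8 with TCM.

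The effect of R788 was then taken within each medium, to show which of these genes differed with the Syk inhibitor. Whether the groups without R788 received its vehicle is not given, so that drug and vehicle cannot be told apart. Without TCM, Mmp8, Mmp14, Mmp19 and Timp2 rose and Mmp12, Mmp13, Adam8 and Timp1 fell, where 11.6% of all tested genes passed in the higher and 15.0% in the lower direction. In NB9464 TCM, R788 lowered Mmp8, Mmp9, Mmp12, Mmp13 and Adam8 and raised none of the 9, where 5.79% of all tested genes were called higher and 8.7% lower. The same 5 of 9 were called lower and none higher in NBT3L TCM, where 5.33% of all tested genes were called higher and 7.24% lower. The 9 genes had a median log2 change of -0.14 without TCM, -0.60 when R788 was given in NB9464 TCM and -0.46 when it was given in NBT3L TCM, beside medians of all tested genes within 0.003 of 0. With total count scaling the calls without TCM over all genes changed from 1882 higher and 2445 lower to 2445 and 1962.

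**Figure D4:**
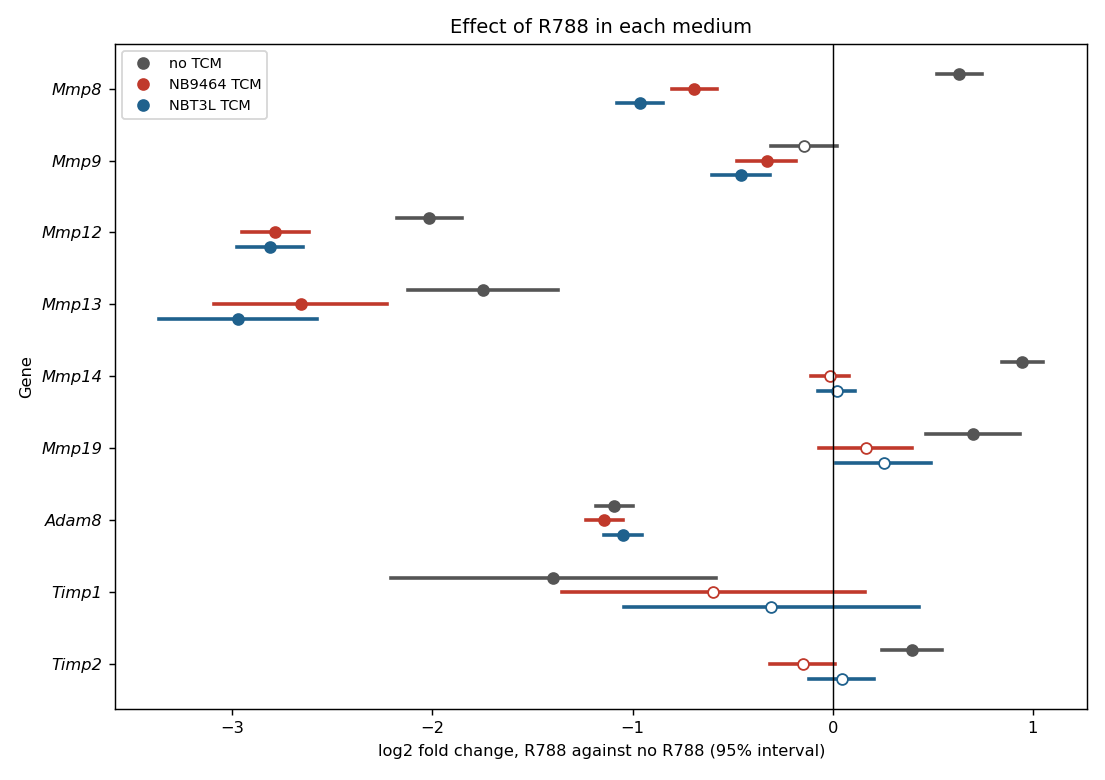
Log2 fold change of each gene between R788 and no R788 in each of the 3 media, from DESeq2; lines are 95% intervals, filled points passed an adjusted p under 0.05 and open points did not. Mmp12, Mmp13 and Adam8 lie left of 0 with filled points in all media. Mmp9 and Timp1 also lie left of 0 in all media, with open points for Mmp9 without TCM and for Timp1 in TCM. Mmp8 lies right of 0 without TCM (0.63) and left of it in NB9464 TCM (-0.69) and NBT3L TCM (-0.96).

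Mmp12 and Mmp13 had the largest falls. For Mmp12, the normalized counts with R788 were 6354 and 5142 without TCM, 1637 and 1748 in NB9464 TCM and 2014 and 1990 in NBT3L TCM. Every R788 library lay below every library without R788. The fall was 4.04-fold without TCM (log2 -2.01 ± 0.08), 6.90-fold in NB9464 TCM (-2.79 ± 0.09) and 7.02-fold in NBT3L TCM (-2.81 ± 0.09). The falls in TCM were larger than that without TCM by 0.77 ± 0.12 in NB9464 TCM and 0.80 ± 0.12 in NBT3L TCM, differences that passed the interaction test.

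Mmp13 had normalized counts with R788 of 393 and 371 without TCM, 61.7 and 101 in NB9464 TCM and 178 and 168 in NBT3L TCM. These lay below the libraries of the same medium without R788. The fall was 3.36-fold without TCM (log2 -1.75 ± 0.19), 6.31-fold in NB9464 TCM (-2.66 ± 0.22) and 7.84-fold in NBT3L TCM (-2.97 ± 0.20). The difference from no TCM was -1.22 ± 0.28 in NBT3L TCM (DESeq2 adjusted p = 0.000239). In NB9464 TCM it was -0.91 ± 0.29 (DESeq2 adjusted p = 0.016), and this call was lost without NS library 2, NB9464 TCM library 4 or NB9464 TCM + R788 library 9 (-0.79, -0.80 and -0.59).

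Adam8 was lowered to a like degree in every medium. Its normalized counts with R788 were 54462 and 50037 without TCM, 45928 and 47211 in NB9464 TCM and 50311 and 50608 in NBT3L TCM, each below every library without R788. The fall was 2.13-fold without TCM (log2 -1.09 ± 0.05), 2.21-fold in NB9464 TCM (-1.14 ± 0.05) and 2.07-fold in NBT3L TCM (-1.05 ± 0.05). The effect in TCM differed from that without TCM by -0.05 (95% interval -0.18 to 0.08) in NB9464 TCM and by 0.04 (-0.09 to 0.18) in NBT3L TCM, and neither passed the test.

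Mmp8 changed direction between media. With R788 its normalized counts were 15893 and 15168 without TCM, above both NS libraries, but 23072 and 22737 in NB9464 TCM and 17715 and 18077 in NBT3L TCM, below the libraries of the same medium without R788. R788 raised it 1.55-fold without TCM (log2 0.63 ± 0.06) and lowered it 1.61-fold in NB9464 TCM (-0.69 ± 0.06) and 1.95-fold in NBT3L TCM (-0.96 ± 0.06). The interaction was -1.32 ± 0.08 in NB9464 TCM (DESeq2 adjusted p = 2.51e-55) and -1.60 ± 0.08 in NBT3L TCM (DESeq2 adjusted p = 2.06e-80). Without TCM, R788 raised Ltf (0.37 ± 0.15) and lowered S100a9 (-0.37 ± 0.14). None of the 9 testable neutrophil markers was called in either direction by R788 in NB9464 TCM, where 14.5% of all tested genes were called. In NBT3L TCM, Ltf and Ngp were called higher, as were 5.33% of all tested genes. The whole list of 10 summed to 586 to 622 TPM in NB9464 TCM + R788, below the 700 to 750 TPM in NB9464 TCM. It summed to 598 to 614 TPM in NBT3L TCM + R788, below the 776 to 794 TPM in NBT3L TCM. The part of these markers in the Mmp8 values was not tested.

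Mmp9 had normalized counts with R788 of 961 and 1056 without TCM, 3988 and 3804 in NB9464 TCM and 6527 and 6667 in NBT3L TCM. The value without TCM did not pass the test (log2 -0.14 ± 0.08), and R788 lowered Mmp9 1.26-fold in NB9464 TCM (-0.33 ± 0.07) and 1.37-fold in NBT3L TCM (-0.46 ± 0.07). The difference of the NBT3L TCM effect from that without TCM was -0.32 ± 0.11 (DESeq2 adjusted p = 0.0377), which edgeR did not call (adjusted p = 0.0988). Leaving out NS library 2, R788 library 8 or any library of the NBT3L TCM groups also ended this call (adjusted p of 0.0973 to 0.233).

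Mmp14 had normalized counts with R788 of 4939 and 5114 without TCM, 28859 and 28738 in NB9464 TCM and 45872 and 45458 in NBT3L TCM. R788 raised it 1.93-fold without TCM (log2 0.95 ± 0.05). In TCM the libraries with and without R788 overlapped, with changes of -0.01 (95% interval -0.11 to 0.08) in NB9464 TCM and 0.02 (-0.08 to 0.11) in NBT3L TCM. The interactions were -0.96 ± 0.07 and -0.93 ± 0.07. Mmp19 had normalized counts with R788 of 1724 and 1942 without TCM, 2036 and 1873 in NB9464 TCM and 1657 and 1462 in NBT3L TCM. It rose 1.63-fold without TCM (0.70 ± 0.12), while its values in TCM (0.16 ± 0.12 and 0.25 ± 0.12) did not pass the test. Its interaction with NB9464 TCM (-0.54 ± 0.17, DESeq2 adjusted p = 0.0138) was lost when either NS library, either NB9464 TCM library, R788 library 8 or NB9464 TCM + R788 library 10 was left out (adjusted p of 0.0526 to 0.0963).

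Timp2 had normalized counts with R788 of 7488 and 7145 without TCM, above both NS libraries. It rose 1.32-fold there (log2 0.40 ± 0.08). In NB9464 TCM + R788 (1601 and 1747) and NBT3L TCM + R788 (2027 and 1920) its changes of -0.15 ± 0.08 and 0.04 ± 0.08 did not pass the test. The interactions were -0.55 ± 0.11 in NB9464 TCM and -0.35 ± 0.11 in NBT3L TCM (DESeq2 adjusted p = 0.018), the latter not called by edgeR (adjusted p = 0.065) or when either NS library, either NBT3L TCM library, R788 library 7 or NBT3L TCM + R788 library 12 was left out (adjusted p of 0.0565 to 0.149). Timp1 had 42.7 and 21.6 normalized counts with R788 without TCM and fell 2.63-fold there (-1.40 ± 0.41, DESeq2 adjusted p = 0.00401). This call was lost without NS library 2 (adjusted p = 0.0959) or R788 library 8 (adjusted p = 0.0984), and when only the groups compared were fitted (adjusted p = 0.12). In TCM its changes of -0.60 ± 0.39 and -0.31 ± 0.38 did not pass.

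Over the 9 genes, 6 of the tests of a different R788 effect in NB9464 TCM and in no TCM were called, where 12.5% of all tested genes were called, and 6 of those for NBT3L TCM, where 10.1% were called. All of them were negative. Over all genes, total count scaling changed the calls above and below 0 from 1013 and 1019 to 661 and 1442 for NB9464 TCM, and from 842 and 807 to 667 and 992 for NBT3L TCM. None of the 9 R788 effects differed between the 2 TCM by the DESeq2 test, where 0.706% of all tested genes were called (46 above and 69 below 0, or 38 and 112 with total count scaling). The nearest was Mmp8 (0.27 ± 0.08, DESeq2 adjusted p = 0.0865, unadjusted p = 0.000886), the only one of the 9 with an unadjusted p under 0.05, and edgeR called none either. Mmp8 was called when only the 4 groups compared were fitted (DESeq2 adjusted p = 2.75e-05).

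The 2 media were also compared with each other. Without R788, Mmp19 was higher in NB9464 TCM and Mmp9, Mmp12, Mmp13 and Mmp14 were lower, where 3.69% of all tested genes were called higher and 5.72% lower. Mmp19 (0.41 ± 0.12) lost its call without NB9464 TCM library 3 or 4 or NBT3L TCM library 6, and Mmp12 (-0.27 ± 0.08) lost it with edgeR (adjusted p = 0.081) and without NB9464 TCM library 4 or NBT3L TCM library 5 or 6. With R788 in both, Mmp8 was higher in NB9464 TCM (0.36 ± 0.06) and Mmp9, Mmp13, Mmp14 and Timp2 were lower, where 3.53% of all tested genes were called higher and 6.09% lower. Of these, Mmp13 (-1.10 ± 0.23) was lost without NB9464 TCM + R788 library 9 (-0.78, DESeq2 adjusted p = 0.0501) and with only the groups compared (adjusted p = 0.0784), and Timp2 (-0.24 ± 0.08) was lost with edgeR and without NB9464 TCM + R788 library 9 or NBT3L TCM + R788 library 11 or 12. With total count scaling the calls over all genes changed from 600 higher and 931 lower to 1269 and 495 without R788 and from 575 and 992 to 903 and 647 with it.

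TCM still moved most of the 9 genes in the presence of R788. Against R788 alone, NB9464 TCM + R788 had Mmp8, Mmp9, Mmp14 and Timp1 higher and Mmp12, Mmp13, Adam8 and Timp2 lower, where 20.7% of all tested genes were called higher and 19.6% lower. NBT3L TCM + R788 had the same 4 higher and Mmp12, Mmp13 and Timp2 lower, where 21.5% of all tested genes were called higher and 19.9% lower. Mmp14 rose 5.73-fold and 9.08-fold in these comparisons and Mmp9 3.86-fold and 6.54-fold. Timp2 fell 4.37-fold and 3.71-fold. The rise of Mmp8 in NBT3L TCM + R788 was small (log2 0.21 ± 0.06) and was -0.08, not called, with total count scaling. The fall of Adam8 in NB9464 TCM + R788 (-0.17 ± 0.05) was lost without NB9464 TCM + R788 library 9 (-0.15) and with only the groups compared (adjusted p = 0.0942). Mmp19 in NBT3L TCM + R788 was at -0.23 ± 0.12 and not called, but was called at -0.52 with total count scaling. With total count scaling the calls over all genes changed from 3378 higher and 3198 lower to 2141 and 4885 for NB9464 TCM and from 3500 and 3240 to 2013 and 5591 for NBT3L TCM. The ratio of the MMP to the TIMP sum was 4.70 ± 0.06 (SD, n = 2) in R788, 29.6 ± 0.64 in NB9464 TCM + R788 and 23.5 ± 0.49 in NBT3L TCM + R788.

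The MMP sum also changed in makeup. Mmp12 gave 36.2% of it in NS, 8.82% in R788, 6.78% in NB9464 TCM and 1.44% in NB9464 TCM + R788, as means of 2 libraries. Mmp14 gave 4.93% in NS and 43.4% in NBT3L TCM + R788. The ratio of Mmp8 to Mmp12 levels was 1.22 and 1.35 in NS, 9.42 and 9.49 in NB9464 TCM and 38.8 and 42.1 in NB9464 TCM + R788. Of the TIMP sum, Timp2 gave 93.8% in NS, 98.2% in R788 and 62.4% in NBT3L TCM.

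Within the chromosome 9 cluster, only Mmp13, Mmp12, Mmp8 and Mmp27 reached 2 TPM in any group. Mmp27, next to Mmp8, was at 31.0 TPM in NS, 29.7 in NB9464 TCM, 36.6 in NBT3L TCM and 33.0 in R788. R788 lowered it in NB9464 TCM (log2 -0.77 ± 0.17) and NBT3L TCM (-0.82 ± 0.16) and not without TCM (0.01 ± 0.16, not called). Mmp3, encoding stromelysin-1, had no count in the NS and R788 libraries and averaged 11.3 normalized counts in NB9464 TCM and 40.8 in NBT3L TCM. Mmp7 and Mmp20 had no count in any library. An exon stretch of 157 bases is shared by Mmp12 and Mmp1b on opposite strands, but Mmp1b had at most 4 counts. Adam8 shares 46 exon bases with the opposite-strand gene Gm16201, which had 33 to 157 counts per library.

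**Figure D5:**
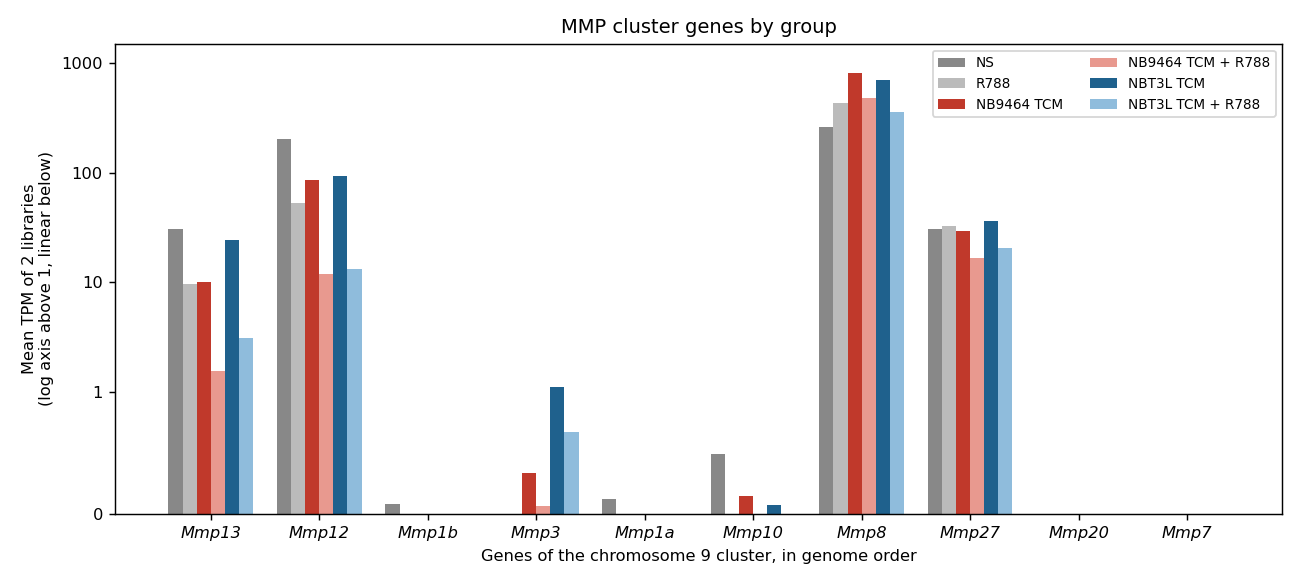
Mean TPM of 2 libraries for the 10 MMP genes of the chromosome 9 cluster in genome order, by group; the axis is linear from 0 to 1 and logarithmic above. Mmp13, Mmp12, Mmp8 and Mmp27 stand above 1 TPM, with Mmp12 at 204 TPM in NS and 11.9 TPM in NB9464 TCM + R788, and the other 6 stay at or below 1.1 TPM.

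Of 17 other MMP genes, 9 could be tested. Mmp2, the gelatinase that Mmp14 activates, had mean normalized counts of 178 in NS, against 633 in NB9464 TCM and 1083 in NBT3L TCM. It rose with NB9464 TCM (log2 1.83 ± 0.15), NBT3L TCM (2.61 ± 0.15) and R788 alone (0.81 ± 0.15), and again with R788 in NB9464 TCM (1.02 ± 0.13) and NBT3L TCM (0.88 ± 0.13). Fibroblasts express Mmp2. Of the 8 fibroblast markers, Col1a1 and Col1a2 were called higher with R788 in every medium. Col3a1 and Lum were called higher in both TCM groups against NS, and 6 of the 8 were not called in NB9464 TCM. In NB9464 TCM + R788 against R788, Mmp2 was called higher, as were Lum and Pdgfrb, but Col1a1 and Col1a2 were called lower. In NBT3L TCM + R788 against R788, Col3a1, Lum, Pdgfrb and Thy1 were called higher and none lower. The part of these markers in the Mmp2 values was not tested. Among the 9 tested MMP genes of this list, 2 were called higher (Mmp2 and Mmp3) and none lower in NB9464 TCM. In NBT3L TCM 3 were higher (also Mmp27). Of all tested genes, 17.2% and 18.0% were called higher in these media. Of 18 other ADAM and ADAMTS proteases, 16 could be tested. Adam10, a main sheddase of Notch receptors and other surface proteins, fell with NB9464 TCM (-0.83 ± 0.06) and NBT3L TCM (-0.84 ± 0.06). Adam17, which releases TNF, was at 0.02 ± 0.06 in NB9464 TCM, where it was not called, rose in NBT3L TCM (0.22 ± 0.06) and was raised slightly by R788 in every medium (0.17 ± 0.06, 0.24 ± 0.06 and 0.22 ± 0.06). In this list, NB9464 TCM raised 2 genes and lowered 3, with 6 and 3 in NBT3L TCM, and 1 and 1 for R788 in each TCM. These shares of 16 stand beside 17.2% higher and 16.9% lower over all tested genes in NB9464 TCM, 18.0% and 17.3% in NBT3L TCM, and 5.33% to 8.7% in either direction for R788 in TCM.

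Among 14 activators and surface partners, 13 could be tested, with 4 called higher and 6 lower in each TCM against NS, where 17.2% to 18.0% of all tested genes were higher and 16.9% to 17.3% lower. Plau, encoding urokinase, which generates the plasmin that activates several proMMPs, fell in NB9464 TCM (log2 -2.70 ± 0.10) and NBT3L TCM (-2.49 ± 0.10) and with R788 in every medium (-1.41 ± 0.10 in NS cells, -1.46 ± 0.11 in NB9464 TCM and -1.26 ± 0.10 in NBT3L TCM). Its receptor Plaur rose slightly in NB9464 TCM (0.22 ± 0.08) and NBT3L TCM (0.45 ± 0.08) and was lowered by R788 there (-1.20 ± 0.08 and -1.41 ± 0.08). Furin, the convertase that removes the propeptide of Mmp14, was lower in NB9464 TCM (-0.25 ± 0.08) and NBT3L TCM (-0.29 ± 0.08). Bsg, encoding the MMP inducer basigin, rose in both (0.37 ± 0.05 and 0.82 ± 0.05), and Rhbdf2, a partner of Adam17, did too (0.73 ± 0.07 and 0.89 ± 0.07). Lrp1, the endocytic receptor that clears MMP9 and MMP13, and Cd44, a docking site for MMP9, fell in both media.

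Of 10 other inhibitors, 6 could be tested. Serpine2, an inhibitor of urokinase and other serine proteases, rose in NB9464 TCM (log2 2.47 ± 0.25) and NBT3L TCM (1.13 ± 0.26), and no other gene of this list was called in either medium. Cst3, the cathepsin inhibitor cystatin C, fell with R788 without TCM (-0.61 ± 0.08) but rose with R788 in NB9464 TCM (0.27 ± 0.08), and was at -0.04 ± 0.08, not called, in NBT3L TCM. Of 15 matrix substrates, 14 could be tested, with 5 higher and 4 lower in NB9464 TCM, 4 and 2 in NBT3L TCM, and 5 and 3 in R788, against 17.2% and 16.9%, 18.0% and 17.3%, and 11.6% and 15.0% of all tested genes. Spp1, encoding osteopontin, which several MMPs cut, had mean normalized counts of 136200 in NS and 3905 in NB9464 TCM + R788. It fell with NB9464 TCM (-1.94 ± 0.05), with NBT3L TCM (-2.83 ± 0.05) and with R788 in NS, NB9464 TCM and NBT3L TCM (-2.59 ± 0.05, -3.18 ± 0.05 and -2.34 ± 0.05). Thbs1, encoding thrombospondin-1, rose with NB9464 TCM (2.61 ± 0.06), NBT3L TCM (3.69 ± 0.06) and R788 alone (1.57 ± 0.06), and Vcan, encoding versican, rose in these 3 as well (1.32 ± 0.09, 1.82 ± 0.09 and 1.86 ± 0.09).

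As a description, the genes whose log2 normalized counts followed each of the 9 most closely over the 12 libraries were sought among the 10715 genes averaging 100 or more normalized counts. They were Tnfrsf1b (Pearson r = 0.998), Rnf149 and Lacc1 for Mmp14, Hmox1 (0.996), Ier3 and Prdx1 for Mmp9, and Snx18 (0.966), Zswim4 and D17Wsu92e for Mmp8. For Mmp12 they were Oas1g (0.990), Oas1a and Oas3, for Mmp13 Parp14 (0.992), Pml and Ddx58, and for Adam8 Isg15 (0.980), Zbp1 and Ifit1. Mmp19 was followed by Sipa1 (0.931), Man2a2 and Nlrx1, Timp1 by Pea15a (0.975), Tuba1a and Psma2, and Timp2 by Syngr1 (0.994), Slc40a1 and Entpd1. Within the 9 genes, r was 0.963 for Mmp9 and Mmp14, 0.951 for Mmp12 and Mmp13, 0.934 for Mmp12 and Adam8, and -0.924 for Mmp14 and Timp2. All of these share the same 12 libraries in 6 groups, so that r mostly describes the order of the group means.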

How the data were processed

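Polyadenylated RNA of 12 BMDM libraries was sequenced. The authors deposited 1 table of raw counts per Ensembl gene with gene lengths, built on the mouse genome mm10 (GRCm38). The submitters' processing notes name STAR 2.6.1d, Salmon 1.4.0, SAMtools 1.9, Picard 2.26 and MultiQC 1.11. The paper's methods name Salmon as the tool that quantified the reads. Of the deposited lengths of matched genes, 97.3% equalled the merged exons, and whether these counts came from Salmon was not tested. Whether strand was used is not given in the sources used here. Among counts from 1 to 40, 65.2% to 67.9% were even, so both mates of a read pair may have been counted, and halved counts were tried as an alternative. The methods and the labels differ on read layout and replicate number, and the labels were followed. All 12 count columns were used.

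Symbols and positions came from GENCODE M21 (54079 of 54232 identifiers matched), promoters from RefSeq. DESeq2 1.42.0 (R 4.3.3), the study's tool, fitted 6 group means over 12 libraries to genes that reached 10 counts in 2 or more libraries. Wald tests of contrasts and interactions were adjusted by Benjamini-Hochberg over 16281 genes, with a threshold of 0.05, and are quoted as log2 fold change ± SE. The scripts were tested on simulated data. edgeR 4.0.16, TMM scaling, count filters, halved counts, fits of only the groups compared and leaving out each library were the alternatives, and total count scaling was added after seeing the data. The genes and lists were chosen with earlier results of these data known. Text names the 9 genes, genes of 5 lists (first those called with a mean of at least 100 normalized counts), the 3 genes most correlated with each of the 9, and cell type markers. Depth limits Timp1 most, and counting intervals would cover counting error only.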

Additional observations from a re-analysis of the deposited data

Results flagged for a closer look

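The effect of R788 differed between conditioned medium and no TCM for 6 of the 9 genes in each medium, by an interaction term in DESeq2. Over all tested genes, the same test called 12.5% for NB9464 TCM and 10.1% for NBT3L TCM. For NB9464 TCM against no TCM, the log2 difference was -1.324 for Mmp8, -0.961 for Mmp14, -0.91 for Mmp13, -0.772 for Mmp12, -0.547 for Timp2 and -0.538 for Mmp19. For NBT3L TCM against no TCM, it was -1.596 for Mmp8, -1.224 for Mmp13, -0.929 for Mmp14, -0.797 for Mmp12, -0.353 for Timp2 and -0.315 for Mmp9. The calls of Mmp13 and Mmp19 in NB9464 TCM and of Timp2 and Mmp9 in NBT3L TCM were lost when some single libraries were left out, which left as few as 4 calls in each medium, and edgeR called 4 in NBT3L TCM (Mmp8, Mmp12, Mmp13 and Mmp14). Both sets use the same NS and R788 libraries. Mmp8 rose with R788 in no TCM and fell in TCM in every library compared. With 2 libraries per group, single libraries were not screened for outliers.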

How the results depend on the processing

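No paired analysis was possible because the labels give no replicate number that groups share. Counts of the 9 genes called stayed within 1.5 times their value under every alternative, except in 3 comparisons. NB9464 TCM against NBT3L TCM had 5 called and 3 to 4 when a library was left out, the low value without NB9464 TCM library 4 or NBT3L TCM library 6. With R788 in both media there were 5 called, 8 with a mean of at least 50 counts, and 3 to 5 when a library was left out. The difference of the R788 effect between the media had 0 called and 1 (Mmp8) when only the groups compared were fitted. Calls for the interactions of R788 with NB9464 TCM and NBT3L TCM, 6 each, were 4 to 6 and 4 to 7 without a library.

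Directions of values that had not passed the test reversed within these ranges when a library was left out: Mmp13 in NBT3L TCM (-0.038 to 0.206), Mmp14 with R788 in NB9464 TCM (-0.058 to 0.032), Timp1 with R788 in NBT3L TCM (-0.562 to 0.005), Adam8 in NBT3L TCM + R788 against R788 (-0.115 to 0.009), the Adam8 interactions with NB9464 TCM (-0.109 to 0.011) and NBT3L TCM (-0.017 to 0.104), and, for the R788 effect between media, Mmp12 (-0.022 to 0.073), Mmp13 (-0.077 to 0.636), Mmp14 (-0.076 to 0.015) and Mmp19 (-0.197 to 0.013). Calls were gained without a library for the interactions of NBT3L TCM and R788 of Mmp19 (-0.549 without NBT3L TCM library 6 and -0.534 without R788 library 7) and Timp1 (1.656 without R788 library 7), and for Adam8 in NBT3L TCM + R788 against R788 (-0.115 without R788 library 8). Total count scaling reversed 8 values: Mmp13 (-0.151) and Mmp19 (-0.017) in NBT3L TCM, Adam8 (0.082) and Timp2 (0.06) between the media, Mmp19 in NB9464 TCM + R788 (-0.122) and the called Mmp8 in NBT3L TCM + R788 (-0.077) against R788, and the Adam8 (-0.006) and Mmp12 (-0.011) interactions. The cause was not tested. With halved counts, 105 of 108 single-gene results kept direction and side of the threshold, with edgeR 103, with TMM scaling 107 and with no count filter 108. Few counts limit Timp1, whose 95% intervals were the widest.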
